A study of Sus scrofa with 40 samples.

Results

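The porcine genes GMPPB and PGM3 were followed through 8 groups of arrays from 20 young female pigs. They were chosen by their symbols in the array annotation, and the pair was chosen for its higher signal in livers of feed-restricted pigs in an earlier analysis of these arrays. The array carried 3 probe sets for them, 2 for GMPPB and 1 for PGM3, of 23999 probe sets other than controls. These are 2 of the 6765 gene symbols given to probe sets with a single symbol. The GMPPB probe sets are called the brighter one (its name ends in A1_at) and the dimmer one (ending in S1_at).

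Both enzymes make activated sugars for glycoproteins. PGM3, phosphoacetylglucosamine mutase, moves the phosphate of N-acetylglucosamine phosphate so that UAP1 can join the sugar to UDP, which gives UDP-N-acetylglucosamine. GMPPB, the catalytic subunit of GDP-mannose pyrophosphorylase, joins mannose phosphate to GDP, and its product supplies the mannose of the lipid-linked oligosaccharide that is moved onto new proteins in the endoplasmic reticulum. The liver secretes most plasma glycoproteins and so draws on both sugars.

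The pigs were Yorkshire gilts, 6 months old, from lines with low or high residual feed intake (RFI), which is the feed eaten beyond the amount that growth and maintenance predict. In each of liver and subcutaneous backfat the 4 groups of 5 arrays were low RFI restricted, low RFI ad libitum, high RFI restricted and high RFI ad libitum pigs, which makes 40 arrays. Restricted pigs received 80% of maintenance feed for 8 days. All groups share the breed and, per nearly all labels, a heterozygous MC4R genotype. MC4R is an appetite receptor, and 1 label speaks only of specific genotypes.

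The arrays were close in scale, with a trimmed mean intensity between 500.09 and 500.15 on each and a median between 127 and 190.1, and none was a copy of another. Tissue identity was checked with marker genes. The mean log2 signal of the 10 hepatocyte genes on the array was 14.99 in restricted and 14.87 in ad libitum livers, and that of 7 adipocyte genes was 12.92 in restricted and 12.93 in ad libitum fat. Fat arrays also carried other tissue: the mean of 7 skeletal muscle genes ran between 5.31 and 12.45 over restricted and between 4.73 and 12.40 over ad libitum fat arrays, and that of the hepatocyte genes reached 12.82 in low RFI restricted replicate 5. Arrays numbered 1 and 2 had a higher log2 ratio of 3' to 5' actin signal than those numbered 3 to 5, at 2.25 ± 0.28 and 1.32 ± 0.194 in liver (SD, n = 8 and n = 12). What this numbering stands for is not given in the labels, so member values are also given within each set.

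PGM3 was a well-measured gene, and in liver it was higher in restricted than in ad libitum pigs of both lines. In low RFI restricted livers the intensities (linear, in arbitrary units) were 715, 929, 1238, 968 and 1432 in replicates 1 to 5. In low RFI ad libitum livers they were 474, 544, 506, 386 and 282. All 5 restricted livers of this line lay above all 5 ad libitum ones, and the means were 1056 ± 280.4 and 438 ± 105 (SD, n = 5 each). In high RFI restricted livers the intensities were 1065, 752, 541, 1179.7 and 903. In high RFI ad libitum livers they were 469, 739.6, 554, 385 and 384. Here 4 of 5 restricted livers lay above every ad libitum liver, replicate 3 being the exception, and the means were 888 ± 253 and 506 ± 148. Over both lines 8 of 10 restricted livers were above all ad libitum livers, and 10 of 10 were above the ad libitum median of 471. The share of all probe sets with such separations is not given, here or for GMPPB below.

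GMPPB was dim, and its brighter probe set had the same order of diets in liver. In low RFI restricted livers it read 132, 134, 178, 81.0 and 468 in replicates 1 to 5. In low RFI ad libitum livers it read 66.5, 20.7, 71.7, 19.1 and 62.6. The groups did not overlap, and replicate 5 of the restricted pigs, which also had the highest PGM3 signal, stood well above the rest of its group. In high RFI restricted livers the values were 197, 139.9, 83.6, 221 and 247. In high RFI ad libitum livers they were 25.5, 74.7, 92.1, 76.7 and 87.7. Replicate 3 was again the restricted liver that lay within the ad libitum range, as it did for PGM3.

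The dimmer GMPPB probe set had groups that overlapped. In low RFI restricted livers it read 49.8, 69.0, 110.2, 11.8 and 186. In low RFI ad libitum livers it read 7.74, 15.6, 65.9, 18.5 and 6.04. In 3 of 5 restricted livers the signal was above that of all ad libitum livers of the line. In high RFI restricted livers the values were 173, 23.5, 10.7, 147 and 113. In high RFI ad libitum livers they were 44.4, 31.2, 9.49, 11.1 and 26.1. The restricted group was split, with replicates 1, 4 and 5 above every ad libitum liver and replicates 2 and 3 inside the ad libitum range.

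**Figure D1:**
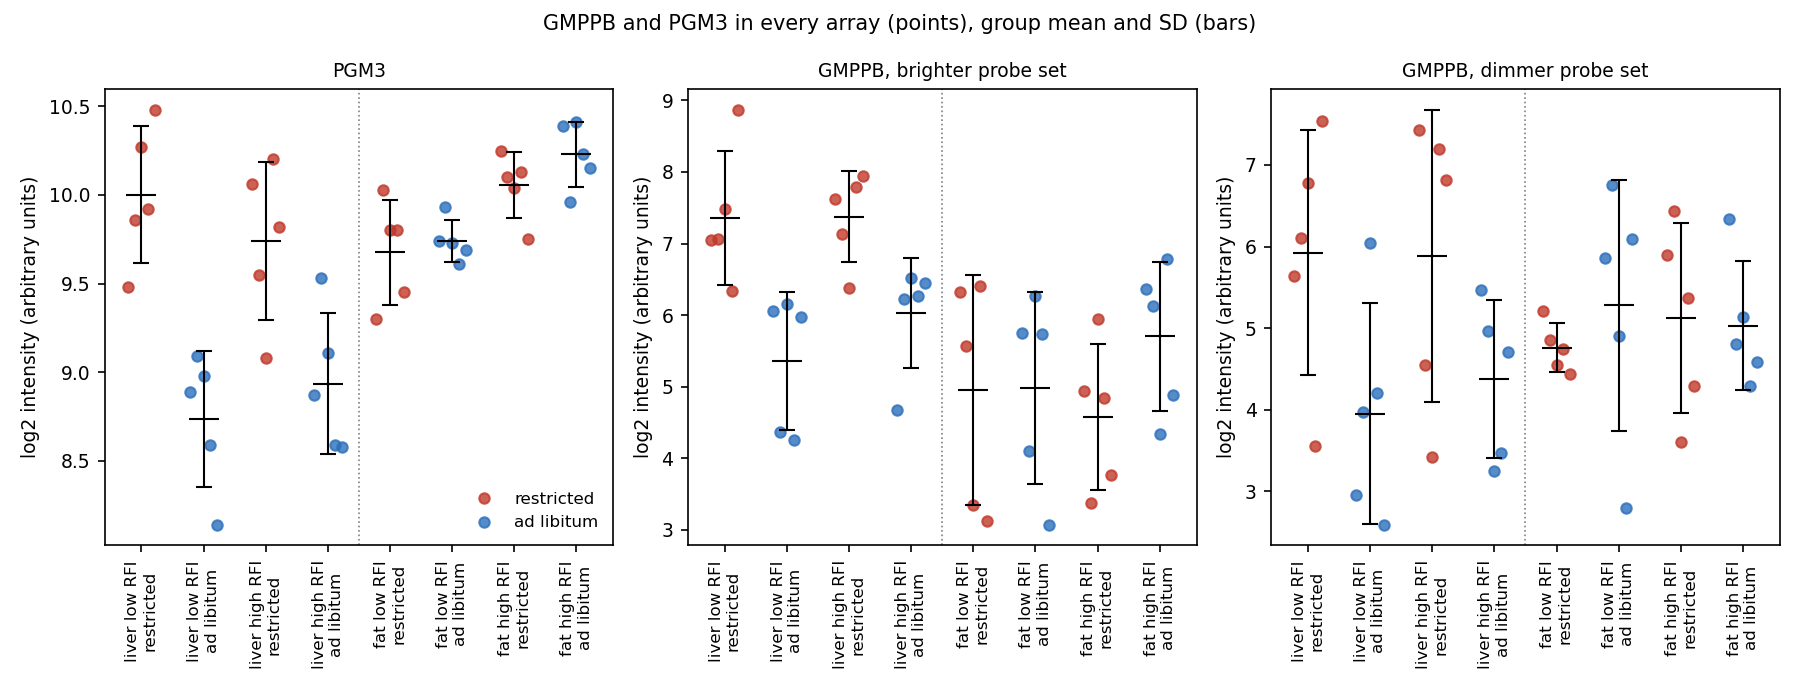
Log2 intensity of the PGM3 probe set (left) and both GMPPB probe sets (middle and right) in each of 40 arrays, by tissue, RFI line and diet, with restricted groups in red left of their ad libitum groups in blue; black bars give the group mean and SD (n = 5). In liver the red points of PGM3 and of the brighter GMPPB probe set lie mostly above the blue ones (8 of 10 above all of them), and in fat they do not.

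Averaged over lines, the log2 difference between restricted and ad libitum livers was 1.04 for PGM3 (SE 0.168), a 2.05-fold higher signal. For GMPPB it was 1.67 (SE 0.345, 3.19-fold) by the brighter probe set and 1.74 (SE 0.631, 3.35-fold) by the dimmer probe set. These differences chose the genes and are given as a description, without a test. For the background, 0.376% of the 15677 probe sets tested in liver were higher in restricted pigs at an adjusted p under 0.05 and 0.542% were lower (limma, Benjamini-Hochberg over all probe sets tested). Testing took in a probe set if 5 or more of the 20 liver or fat arrays put it over their 40th percentile, an intensity of 72.6 to 119 depending on the array. PGM3 exceeded it in 10 of 10 restricted and 10 of 10 ad libitum livers. The brighter GMPPB probe set did so in 8 restricted and 2 ad libitum livers, and the dimmer in 5 restricted and 0 ad libitum livers, so neither would have entered without the restricted pigs, and no limma p is given for GMPPB.

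Within the array sets the PGM3 difference was 0.64 over arrays numbered 1 and 2 and 1.30 over those numbered 3 to 5. For GMPPB the corresponding values were 1.88 and 1.53 by the brighter probe set and 1.59 and 1.84 by the dimmer probe set. The direction was the same in both sets for all 3 probe sets. This is no separate support, since the genes were chosen for this difference over the same arrays. In bulk tissue, more cells that express a gene and more of its RNA in each cell cannot be told apart.

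Low and high RFI pigs were compared next. In liver PGM3 did not pass the test between lines. PGM3 averaged 747 in low and 697 in high RFI livers, a log2 difference of 0.03 (95% interval -0.33 to 0.39, limma adjusted p = 0.99). For GMPPB, given as values only, the difference was -0.34 (SE 0.345) by the brighter probe set and -0.19 (SE 0.631) by the dimmer one. The share of all probe sets that passed was 0.0447% (7 of 15677).

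The diet difference in liver was numerically larger in low than in high RFI pigs at each probe set. For PGM3 it was 1.27 on the log2 scale in low RFI pigs and 0.80 in high RFI pigs. For GMPPB it was 2.00 in low and 1.35 in high RFI pigs by the brighter probe set, and 1.97 in low and 1.51 in high RFI pigs by the dimmer one. The PGM3 gap between lines, 0.46 (95% interval -0.25 to 1.17, unadjusted p = 0.185, limma adjusted p = 0.999), did not pass the interaction test. The GMPPB gaps of 0.65 (SE 0.689) and 0.46 (SE 1.26) are given as values only. Over all liver probe sets 0% passed in limma, with 525 of 15677 at an unadjusted p under 0.05.

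In backfat PGM3 was bright in every group and showed no diet difference that passed the test. Low RFI restricted fat read 629, 1047, 891, 891 and 698, against 853, 978, 851, 779.5 and 825 in low RFI ad libitum fat. High RFI restricted fat read 1222, 1095, 1055, 1117 and 862, against 1345, 996, 1362, 1201 and 1139 in high RFI ad libitum fat. The diets overlapped in both lines, and 5 of 10 restricted samples lay below the ad libitum median. The log2 difference was -0.12 (SE 0.0975, 95% interval -0.33 to 0.09, limma adjusted p = 0.391), in a tissue where 15.1% of 15498 probe sets were higher and 10.7% lower in restricted pigs. The difference of the diet effects between tissues was not tested, since it contains the liver comparison by which the genes were chosen.

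PGM3 in fat differed more between lines than between diets. Its mean intensity was 844 in low and 1139 in high RFI fat, and the log2 difference was -0.43 (SE 0.0975, 95% interval -0.64 to -0.23), 1.35-fold lower in low RFI pigs. All 10 low RFI samples lay below the high RFI median of 1128, and among ad libitum pigs all 5 low RFI samples lay below all 5 high RFI samples. Among restricted pigs 2 of 5 did, and the share of all probe sets with such a separation is not given. The unadjusted p was 0.00022, which ranked 15 of 15498 probe sets, and the limma adjusted p of 0.19 did not pass the threshold; 0.0194% of probe sets (3) did. The difference was -0.43 over arrays numbered 1 and 2 and -0.44 over those numbered 3 to 5.

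Muscle signal in fat was higher on average in low RFI pigs, but the ranges overlapped widely and this was not tested. The mean log2 signal of the 7 muscle genes was 9.55 ± 3.1 (range 4.73 to 12.45) in low RFI and 7.42 ± 2.04 (range 4.83 to 10.83) in high RFI fat (SD, n = 10 each). With that mean as a covariate, chosen after seeing the data, the PGM3 line difference was -0.47 (limma adjusted p = 0.301). The interaction of line and diet in fat was 0.11 for PGM3 (95% interval -0.30 to 0.52, limma adjusted p = 1), and 0% of fat probe sets passed it in limma, with 244 of 15498 at an unadjusted p under 0.05.

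GMPPB was near the floor in fat. Neither probe set passed the filter on dim signals there, so neither was tested with limma. In fat they enter only the permutation tests of correlation below. By the brighter probe set restricted fat ran between 8.67 and 84.6, with a median of 29.7, and ad libitum fat between 8.41 and 109.6, with a median of 53.5. By the dimmer probe set the range was 12.1 to 87.0 in restricted and 6.91 to 108 in ad libitum fat. The diets overlapped almost wholly, and the log2 differences were -0.58 (SE 0.522) and -0.22 (SE 0.442).

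Set in order of mean log2 signal, the 8 groups of PGM3 fell into a closely spaced upper run and a lower pair. The upper run went from high RFI ad libitum fat (10.23 ± 0.186) through high RFI restricted fat (10.05 ± 0.186), low RFI restricted liver (10.00 ± 0.388), high RFI restricted liver (9.74 ± 0.445) and low RFI ad libitum fat (9.74 ± 0.12) to low RFI restricted fat (9.67 ± 0.297; SD, n = 5 each). No neighbours in that run differed by more than the larger of their SDs. The next step down, of 0.73, led to high RFI ad libitum liver (8.94 ± 0.398), followed by low RFI ad libitum liver (8.74 ± 0.382). For the brighter GMPPB probe set the one gap wider than the SDs, of 1.33, separated both restricted liver groups (7.37 ± 0.632 in high RFI and 7.36 ± 0.938 in low RFI pigs) from the other 6 groups, the nearest being high RFI ad libitum liver at 6.03 ± 0.768. For the dimmer GMPPB probe set no step was wider than the SDs, and the one below the restricted livers was 0.61 against an SD of 1.79.

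Between tissues PGM3 was lower in liver than in fat, by 0.57 on the log2 scale when averaged over the groups. The log2 difference was -0.57 (SE 0.0991, 1.48-fold lower in liver, limma adjusted p = 2.73e-06), and 78.8% of the 14001 probe sets tested in both tissues passed this test. The fit took all 40 arrays as independent, although each pig gave both tissues, because the labels do not pair them. By diet, restricted livers averaged 9.87 and restricted fat 9.86, while ad libitum livers averaged 8.84 and ad libitum fat 9.98. All 10 ad libitum livers lay below all 10 ad libitum fat samples. The share of all probe sets with such a separation is not given, and the ad libitum livers are part of the comparison that chose PGM3. The brighter GMPPB probe set averaged 7.37 in restricted livers and 4.76 in restricted fat, and 5.70 in ad libitum livers and 5.34 in ad libitum fat, without a test. The dimmer one averaged 5.91 in restricted livers and 4.94 in restricted fat, but 4.16 in ad libitum livers and 5.15 in ad libitum fat, and its difference over all groups was -0.01 (SE 0.381), against 1.48 (SE 0.325) for the brighter one.

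Whether the genes also moved together among pigs of the same group was examined after the group means were removed, over 20 arrays of a tissue and 6 relations. Most of the GMPPB values lay below the filter on dim signals (all 10 ad libitum livers for the dimmer probe set), so the relations describe dim signals. In liver PGM3 and the dimmer GMPPB probe set had Pearson's r = 0.63 (permutation p = 0.00873, adjusted p = 0.0524) and Spearman's rho = 0.65 (permutation p = 0.0068, adjusted p = 0.0408), two-sided. Without the 2 arrays farthest from the PGM3 median r was 0.45 and rho was 0.46 (permutation p = 0.0892 and permutation p = 0.0798). Pearson's r was 0.51 over arrays numbered 1 and 2 (permutation p = 0.501) and 0.80 over those numbered 3 to 5 (permutation p = 0.0152). PGM3 and the brighter GMPPB probe set had r = 0.35 (rho = 0.26, permutation p = 0.164 and p = 0.282), and both GMPPB probe sets correlated with each other at r = 0.37 (rho = 0.30, permutation p = 0.136 and p = 0.219). Without the 2 arrays farthest from the median of the dimmer probe set, the GMPPB probe sets had r = 0.08 and rho = 0.04. The relation of PGM3 to GMPPB thus rests on the dimmer probe set, which the brighter one followed poorly. In fat the r values were 0.37 for PGM3 with the dimmer GMPPB probe set (permutation p = 0.0465, adjusted p = 0.14; 0.54 without the 2 arrays farthest from the PGM3 median, permutation p = 0.0177), 0.00 for PGM3 with the brighter GMPPB probe set and -0.26 between the GMPPB probe sets.

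**Figure D2:**
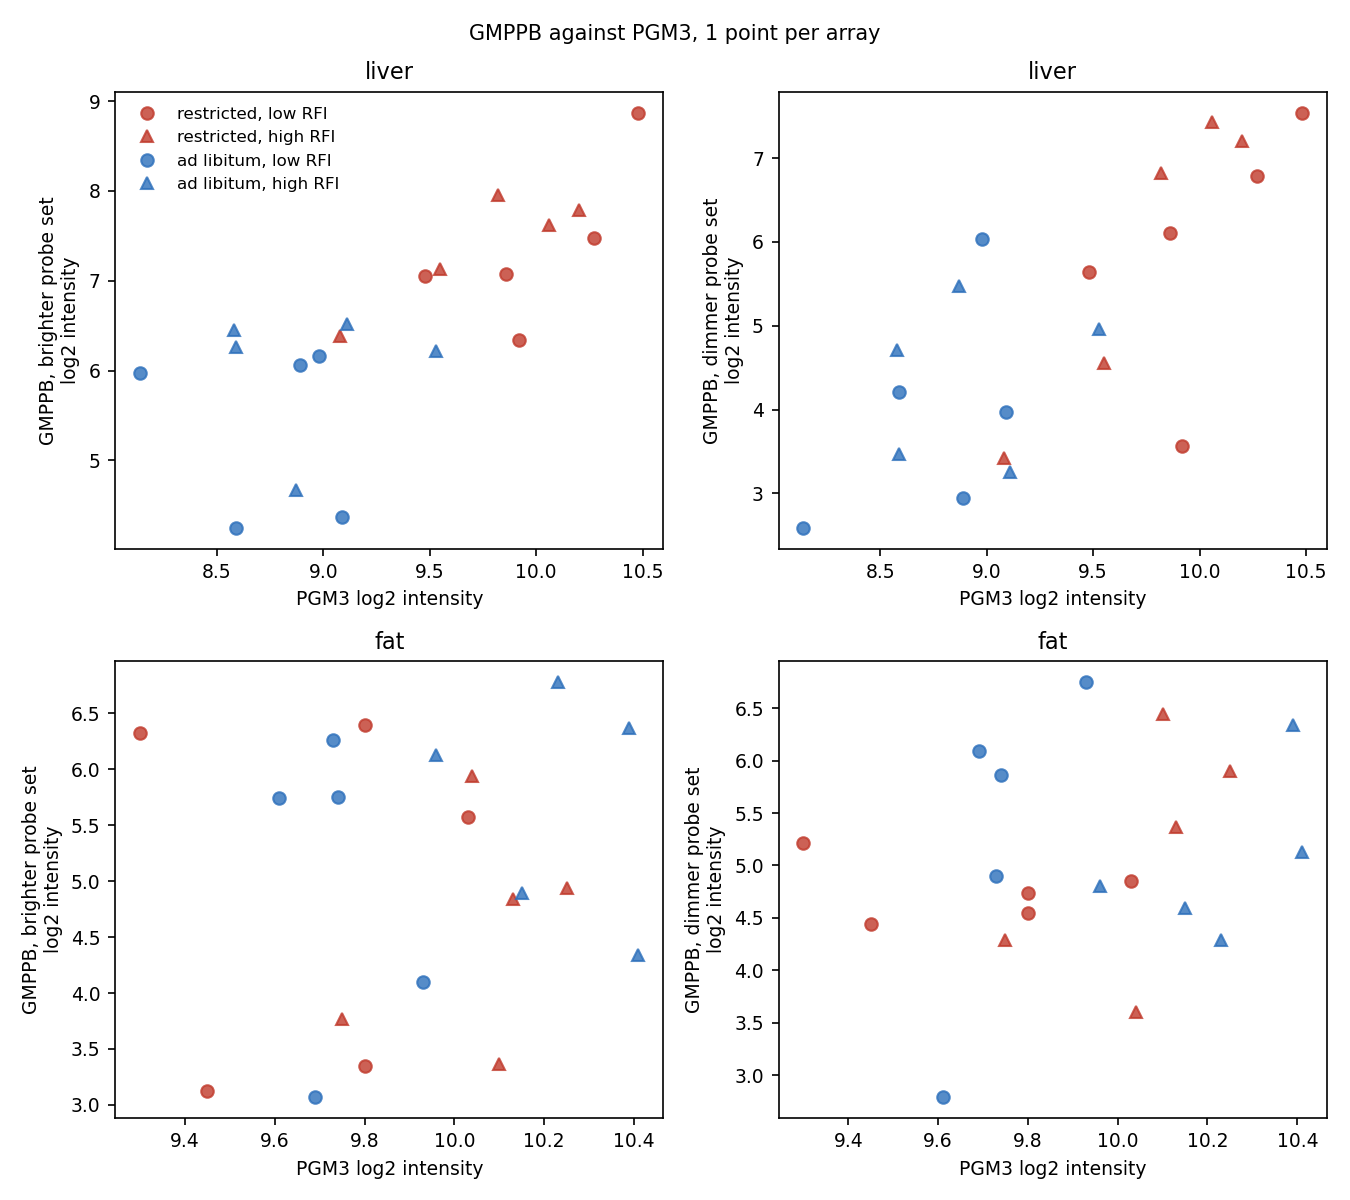
Log2 intensity of each GMPPB probe set (vertical) against PGM3 (horizontal), 1 point per array, in liver (top) and fat (bottom), with restricted pigs in red, ad libitum pigs in blue, low RFI as circles and high RFI as triangles. In liver the red points lie mostly above and to the right of the blue ones, and in fat all 10 low RFI points lie left of the high RFI median of PGM3.

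Over the 20 liver arrays, the named probe sets whose log2 signal followed PGM3 most closely, among 7876 compared, were HSP90B1 (Pearson's r = 0.85), USE1 (0.83), LRRC59 (0.83), MANF (0.81) and NHP2 (0.80). HSP90B1 and MANF are a chaperone and a stress-induced protein of the endoplasmic reticulum. Those that followed the brighter GMPPB probe set, among 7875, were RPL3 (0.80), SDF2L1 (0.78), FARSA (0.76), CCDC115 (0.75) and PDCD5 (0.75). SDF2L1 is another protein of the endoplasmic reticulum lumen. With the group means removed the lists were nearly replaced, with CYTH2 (0.77), RAB3A (0.74), USE1 (0.73), KLHL20 (0.71) and MRPS12 (0.71) for PGM3, and PPM1F (0.74), DDX11 (0.73), GMPS (0.71), PNPLA2 (0.70) and ZNF330 (0.70) for GMPPB. The points share the diet contrast and the arrays, so these are descriptions.

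The enzymes next to PGM3 in the UDP-N-acetylglucosamine route did not pass the diet test in liver. GFPT1, which makes glucosamine phosphate and sets the pace of the route, had a log2 difference of 0.33 (limma adjusted p = 0.492) by its brightest probe set. GNPNAT1, the acetyltransferase just before PGM3, had 0.24 (limma adjusted p = 0.269), and UAP1, just after it, had -0.22 (limma adjusted p = 0.47). In fat both upstream enzymes fell in restricted pigs, GFPT1 by 0.55 (limma adjusted p = 0.0138; geometric means 94.2 in restricted and 138 in ad libitum fat) and GNPNAT1 by 0.82 (limma adjusted p = 0.000281; 3011 in restricted and 5313 in ad libitum fat). A dimmer GNPNAT1 probe set had -0.35 (limma adjusted p = 0.0897), and UAP1 had 0.00. Of all probe sets tested in fat, 10.7% were lower and 15.1% higher in restricted pigs. The ratio of 3' to 5' GAPDH signal also differed by diet in fat, as described below, and values of these enzymes with that ratio in the model are not given.

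The enzymes around GMPPB likewise did not pass in liver. The phosphomannose isomerase MPI had a log2 difference of 0.08, and the mannose phosphate mutases PMM1 and PMM2 had 0.49 and 0.02. GMPPA, the regulatory partner of GMPPB, had 0.38 (limma adjusted p = 0.506). Of the users of GDP-mannose, GMDS, the first enzyme of GDP-fucose synthesis, had 0.24 and DPM1, of dolichol phosphate mannose synthase, had 0.05 by their brightest probe sets. In fat the differences of these genes, by the same probe sets, lay between -0.12 for DPM1 and 0.26 for GMPPA, and none passed.

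**Figure D3:**
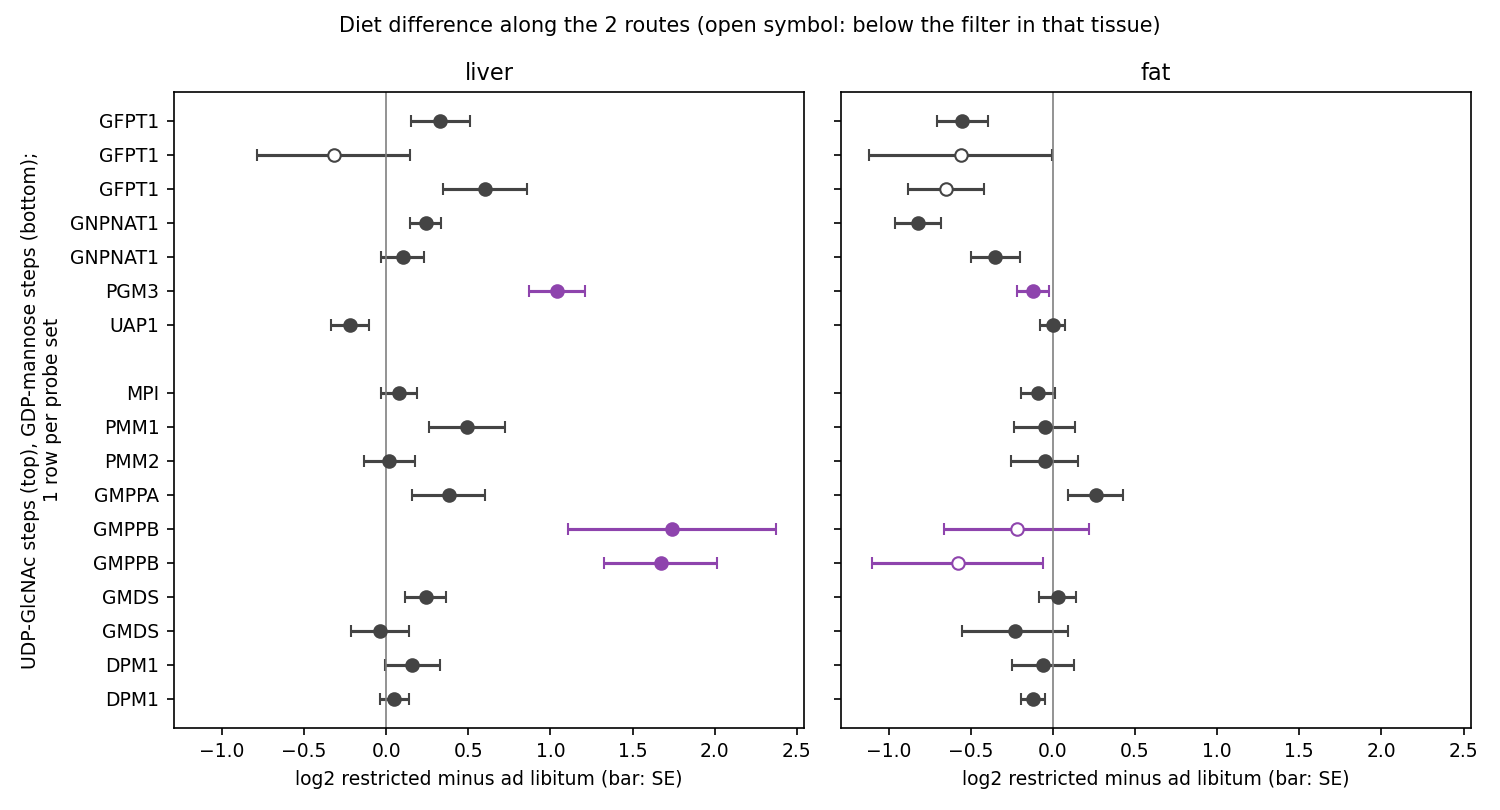
Log2 difference between restricted and ad libitum pigs, with its SE, for the enzymes of the UDP-N-acetylglucosamine route (top) and around GDP-mannose (bottom), 1 row per probe set, in liver (left) and fat (right); PGM3 and GMPPB are purple and open symbols did not pass the filter on dim signals. In liver PGM3 (1.04) and GMPPB (1.67 and 1.74) lie right of the other enzymes, and in fat GFPT1 and GNPNAT1 lie left of 0.

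A wider set of 136 other genes of glycosylation and the unfolded protein response, in 10 lists, was counted by each gene's brightest probe set. The lists were chosen with earlier results of these arrays known, so the counts are descriptions and no separate support. The shares of all probe sets beside these counts also take in probe sets that are not a gene's brightest. With the filter at the 60th percentile, 72 of 10550 probe sets were higher in restricted liver. In restricted fat 1933 of 10622 were then higher and 1545 lower. Of 93 listed genes measured in liver, 6 rose in restricted pigs (6.45%, beside 0.376% of all probe sets) and 0 fell (limma, with 2 lower and 23 higher at an unadjusted p under 0.05). Over all probe sets 1941 of 15677 had such an unadjusted p, in either direction. The median log2 difference of the listed genes was 0.08, against 0.02 over all probe sets tested. The unfolded protein response list, chaperones and sensors of the endoplasmic reticulum, held 5 of the 6: MANF (0.91, limma adjusted p = 0.0219), SDF2L1 (0.99, limma adjusted p = 0.0278), the transcription factor XBP1 (0.45, limma adjusted p = 0.034), the chaperone HSPA5 (0.50, limma adjusted p = 0.0453) and HSP90B1 (0.46, limma adjusted p = 0.0478). The list's median was 0.46 over 15 genes, 14 of them positive, and the share of all probe sets above 0 is not given. The sixth gene was SLC35B1 (0.63, limma adjusted p = 0.0343), which is grouped with the nucleotide sugar transporters and is known in human cells to carry ATP into the endoplasmic reticulum.

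Several of these calls lay close to the threshold, and the count of 6 moved with single arrays. It was 0 without high RFI restricted replicate 5. It was 1 without high RFI restricted replicate 4 or without high RFI ad libitum replicate 1, 4 or 5, and 2 without low RFI ad libitum replicate 1 or 5. It was 3 without low RFI restricted replicate 2, high RFI restricted replicate 1 or low RFI ad libitum replicate 4. Calls over all probe sets moved with the same arrays. Those higher in restricted liver numbered 59 in the main fit, 19 without high RFI restricted replicate 5 and 27 without high RFI restricted replicate 4. They numbered 24, 25 and 33 without high RFI ad libitum replicates 1, 4 and 5.

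No other list had a member past the threshold in liver. The oligosaccharyltransferase list, the enzyme that transfers the finished glycan, had 9 of 10 genes above 0 and a median of 0.20, with STT3A at 0.45 (limma adjusted p = 0.14) and TMEM258 at 0.29 (limma adjusted p = 0.222). Over all probe sets tested in liver the median was 0.02, and the share above 0 is not given. Genes of a list share the same arrays, so such counts are descriptions. Dolichol and lipid-linked oligosaccharide assembly had a median of 0.09 over 11 genes, with DPM2, a partner of DPM1, at 0.98 (limma adjusted p = 0.164) and ALG14 at 0.82 (limma adjusted p = 0.429). The sialic acid enzymes GNE and NANS had 0.46 (limma adjusted p = 0.114) and 0.62 (limma adjusted p = 0.118) in a list of other sugar nucleotide enzymes whose median was -0.02. The hexosamine list had a median of 0.01 over 8 genes, with GNPDA1, which breaks glucosamine phosphate down, at -0.31, and the GDP-mannose and GDP-fucose list had 0.08 over 7. Medians were 0.02 for nucleotide sugar transport (SLC35D2 at 0.17), 0.06 for N-glycan trimming and folding (PDIA3 at 0.20, CANX at 0.11), -0.06 for Golgi processing (MGAT5 at -0.30, ST3GAL4 at -0.21) and 0.16 for O-GlcNAc cycling (OGT at 0.24, MGEA5 at 0.08).

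In fat the same genes moved in both directions. Of 91 measured, 9 rose (9.89%, beside 15.1% of all probe sets) and 17 fell (18.7%, beside 10.7%), with a median of -0.08 against 0.08 over all probe sets. The falls included the mannosidase MAN2A2 (-1.06, limma adjusted p = 1.9e-05), DERL1 of protein degradation (-0.88, limma adjusted p = 3.22e-06), the UDP-N-acetylglucosamine transporter SLC35A3 (-0.78, limma adjusted p = 0.000355), DNAJB9 (-0.55), MPDU1 (-0.57), GALM (-0.54), DAD1 (-0.49), LMAN2 (-0.49), NANS (-0.45), MAGT1 (-0.37) and the GDP-fucose enzyme TSTA3 (-0.37). The rises included the mannosyltransferase ALG9 (1.18, limma adjusted p = 2.63e-05), RENBP (0.64), MAN1C1 (0.47), MGAT5 (0.44), SLC35D2 (0.33), and both enzymes of O-GlcNAc cycling, OGT (0.38) and MGEA5 (0.36). HSPA5 fell by 0.37 in fat (limma adjusted p = 0.0086) and XBP1 rose there by 0.27 (limma adjusted p = 0.0138), while MANF had -0.10 and HSP90B1 had -0.13 and neither passed. The log2 ratio of 3' to 5' GAPDH signal also differed by diet in fat. It was 1.88 ± 0.521 in restricted and 1.19 ± 0.365 in ad libitum pigs (SD, n = 10 each). With this ratio and that of actin in the model 7 of the listed genes fell instead of 17. Over all 15498 probe sets the lower calls dropped as well, to 921 from 1655. Between lines 0 of the listed genes passed in either tissue in limma. At an unadjusted p under 0.05 there were 4 of 93 in liver and 6 of 91 in fat. Over all probe sets there were 1024 of 15677 in liver and 1205 of 15498 in fat.

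**Figure D4:**
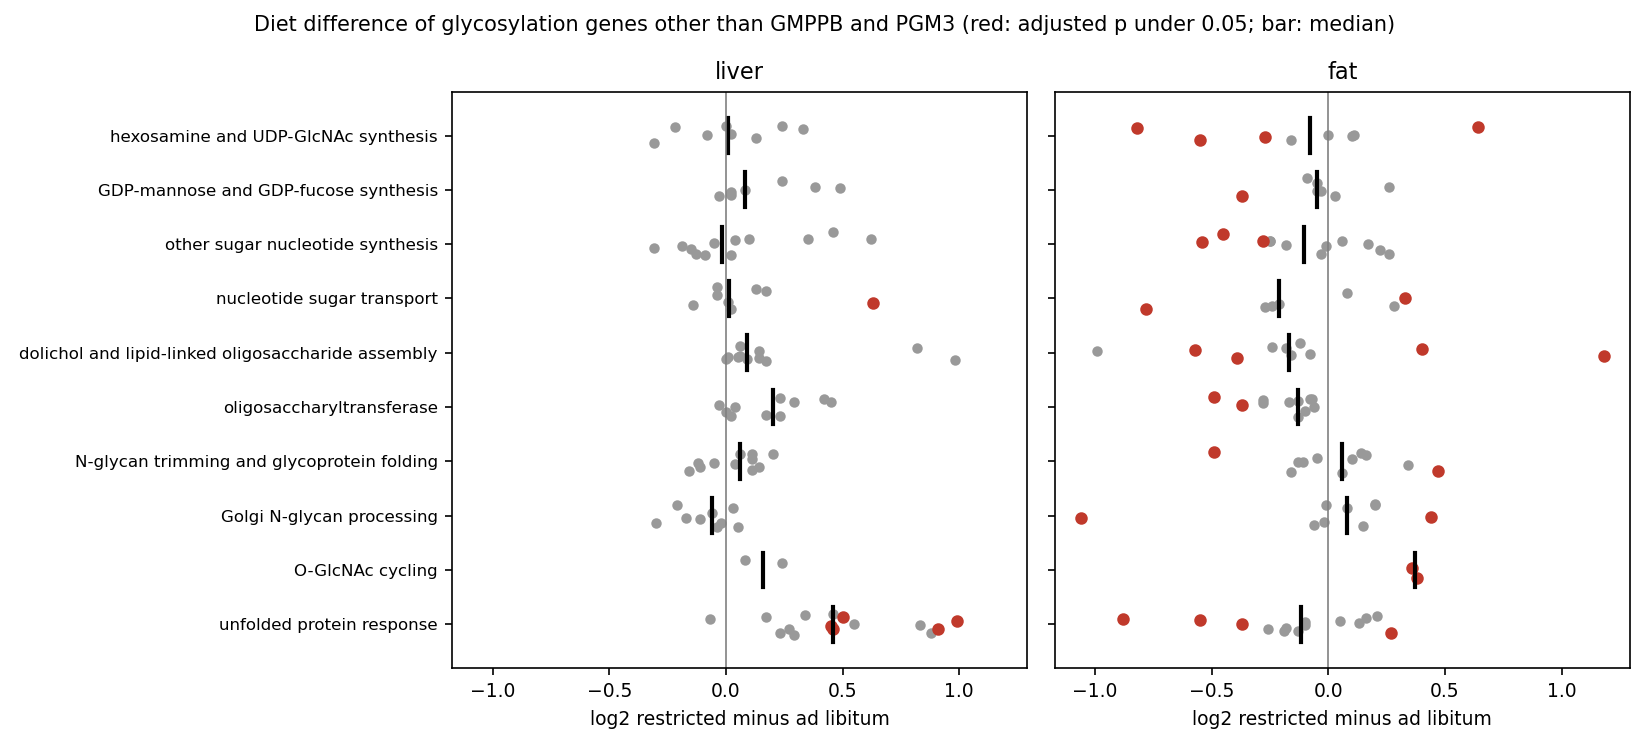
Log2 difference between restricted and ad libitum pigs for genes of 10 lists (1 point per gene, GMPPB and PGM3 left out) in liver (left) and fat (right), red where the limma adjusted p is under 0.05 and with a black bar at each list's median. In liver 5 of the 6 red points are in the unfolded protein response list, and in fat 17 red points lie left of 0 and 9 right of it.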

How the data were processed

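RNA from liver and backfat was biotin-labelled and hybridised to 1-colour Affymetrix porcine arrays, per the labels' protocols. Each deposited value is a linear intensity of 1 probe set, which the authors processed with affy and MAS5, per the submitters' processing notes, which give no version. Values were taken as deposited and put on the log2 scale. Of 24123 probe sets, 124 controls were left out. Of the rest, 10069 have 1 symbol in the platform annotation, 198 several and 13732 none.

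Groups were fitted in each tissue with limma 3.58.1 (R 4.3.3, eBayes with an intensity trend), testing probe sets above the 40th percentile of their array on at least 5 of 20 arrays, with Benjamini-Hochberg adjustment over all tested and a threshold of 0.05. The scripts were tested on simulated data. Correlations used 100000 permutations within groups. Named genes were GMPPB and PGM3, their neighbours in the reactions, the 2 genes of each list with the smallest diet p per tissue, and the 5 probe sets most like each gene over the liver arrays. XBP1, HSPA5 and HSP90B1, and fat values of genes named for liver, were added after their values were seen. Members and lists were chosen with earlier results of these data known. The labels do not say which arrays of the 2 tissues come from 1 pig, so the test between tissues ignores that pairing. Within a tissue the p-values measure the spread between pigs, together with any difference between array numbers. The number of arrays limits the precision. Alternatives were quantile normalization, other filters, no intensity trend, an added offset, the replicate block, each array left out, the array sets and ratio covariates, and, chosen after seeing the data, a muscle covariate and these settings for the list counts. Figures were drawn with matplotlib 3.10.9.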

Additional observations from a re-analysis of the deposited data

Results flagged for a closer look

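In high RFI ad libitum livers, replicate 1 had a GMPPB signal of 25.5 by the brighter probe set, apart from 74.7 to 92.1 in the other 4 livers of its group. On the log2 scale the gap to the nearest of them was 0.84 of the group's range, above Dixon's critical value of 0.71 for 5 samples. Among 24 combinations of group and probe set this was the 1 past that value, and chance gives about 1 in 20. Its PGM3 signal of 469 was the median of its group, and by the dimmer probe set it had the highest GMPPB signal of its group, 44.4.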

How the results depend on the processing

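With each array left out in turn, the diet differences in liver ran from 1.54 to 2.05 (the dimmer GMPPB probe set), 1.48 to 1.80 (the brighter GMPPB probe set) and 0.96 to 1.12 (PGM3). The line differences in liver ran from -0.50 to 0.11, -0.53 to -0.20 and -0.05 to 0.11 in the same order, and the interactions from -0.16 to 1.05, 0.27 to 0.99 and 0.29 to 0.59, with no call for PGM3 in any. In fat PGM3 ran from -0.16 to -0.07 for diet, from -0.48 to -0.39 for line (limma adjusted p from 0.0944 to 0.293) and from 0.02 to 0.20 for the interaction. In fat GMPPB ran from -0.53 to -0.02 and -0.82 to -0.35 for diet, -0.25 to 0.25 and -0.35 to 0.07 for line, and -1.23 to -0.24 and 0.62 to 1.55 for the interaction. Liver minus fat ran from -0.17 to 0.14, 1.36 to 1.57 and, for PGM3, -0.61 to -0.53. Listed genes higher in restricted liver numbered 0 to 7, lower 0, and in fat 9 to 11 higher and 15 to 19 lower. Over all probe sets, those higher in restricted liver ran from 19 to 83. In fat they ran from 1929 to 2712 higher and from 1468 to 1835 lower.

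Over arrays numbered 1 and 2 alone, the line difference of PGM3 in liver was -0.17, the liver interaction of the brighter GMPPB probe set was -0.08, and the fat interactions were -0.17 for PGM3, -1.87 for the dimmer GMPPB probe set and 3.11 for the brighter GMPPB probe set. Over arrays numbered 3 to 5, the liver line difference of the dimmer GMPPB probe set was 0.31, its liver interaction was -0.33, and the fat interaction of the brighter GMPPB probe set was -0.25. The listed genes higher in restricted liver then numbered 0 in either set, with fewer arrays, and those in fat 0 and 5 higher, and 5 lower over arrays numbered 1 and 2. Of all probe sets, 0 over arrays numbered 1 and 2 and 7 over those numbered 3 to 5 were higher in restricted liver. In fat 160 and 1657 were higher, and 309 were lower over arrays numbered 1 and 2. With both 3' to 5' ratios in the model 7 listed genes were lower in fat, beside 921 of all probe sets, against 1655 without the ratios. Correlations over arrays numbered 1 and 2 were 0.51 in liver and 0.29 in fat for PGM3 with the dimmer GMPPB probe set (0.33 in fat over numbers 3 to 5), -0.15 in liver between the GMPPB probe sets, and -0.24 in fat for PGM3 with the brighter GMPPB probe set (0.30 over numbers 3 to 5). The cause was not tested. Of 782 values recomputed, 743 kept their direction and call or moved by less than an SD.

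Same-numbered arrays of different groups correlated over 0.1, after group means were removed, in 26 of 30 pairs in liver (median 0.18) and 23 of 30 in fat (median 0.20). Arrays of different number did so in 27 of 120 pairs in liver (median -0.08) and 23 of 120 in fat (median -0.05), and 13 of 20 liver and 12 of 20 fat arrays correlated best with their own number. Same-numbered arrays were thus more alike than others, though some pairs lay under 0.1. The labels give the number no meaning and the main fits have no block, so their spread also holds differences between numbers. With the replicate block the PGM3 line difference in fat was -0.43 (limma adjusted p = 0.0964), and 8 listed genes rose in liver and 21 fell in fat. Over all probe sets the block moved the liver diet calls to 328 (155 higher), against 144 without it (59 higher). Fat line calls moved to 20, against 3, and lower calls for diet in fat to 2000, against 1655. GMPPB could not be fitted under the stricter filter, which it does not pass. Its signal near background limits it: the intensity at the filter was 72.6 to 119.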

Other observations

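Neighbouring genes were looked up by name in RefSeq Sscrofa11.1 and chosen after the data were seen. The GMPPB gene model overlaps that of RNF123, for which no probe set carries the symbol, so a signal shared between them was not tested. On its other side lies IP6K1, an inositol phosphate kinase, with a log2 diet difference of -0.17 in liver (SE 0.275, limma adjusted p = 0.874). PGM3 lies between RWDD2A and DOPEY1, and the probe sets of DOPEY1 had differences of 0.20 and 0.00 in liver (limma adjusted p = 0.683 and limma adjusted p = 0.998). The gene beyond RWDD2A is ME1, the cytosolic malic enzyme that supplies NADPH for fat synthesis, which fell in restricted pigs while PGM3 was higher in their livers. ME1 had geometric means of 163 in restricted and 308 in ad libitum livers (log2 -0.91, SE 0.214, limma adjusted p = 0.0422), and 2343 in restricted and 14692 in ad libitum fat (log2 -2.65, SE 0.215, limma adjusted p = 1.94e-07).

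UAP1, the enzyme after PGM3, was on the other side of 0 from it between lines in fat: UAP1 had a log2 difference of 0.29 (limma adjusted p = 0.234) in low against high RFI fat and PGM3 had -0.43, and neither passed the test.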
